A study of Mus musculus with 8 samples.

Results

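The genes described here are 10 enzymes of fatty acid synthesis, Acly, Acss2, Aacs, Acaca, Fasn, Elovl6, Scd1, Scd2, Fads1 and Fads2, in mouse embryonic stem cells (mESCs) with and without morphine. A gene was taken as the locus of the RNA-Seq count table that most often carries its name, and each of the 10 names gave 1 locus out of 44396 in the table. All 10 were among the 20350 loci with enough counts to be tested. The set was chosen because several of these enzymes had shown higher RNA after morphine in these same libraries. For that reason the difference between morphine and control is given below as a description of each enzyme. Counts of enzymes called by the fit over all loci are part of that description and are not evidence for it.

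Cells build fatty acids in the cytosol from acetyl-CoA. Citrate leaves the mitochondrion and is split by ATP citrate lyase (Acly), while Acss2 makes acetyl-CoA from acetate and Aacs activates acetoacetate, a ketone body. Acetyl-CoA carboxylase (Acaca) converts acetyl-CoA to malonyl-CoA, and fatty acid synthase (Fasn) joins these units into palmitate. Elovl6 lengthens the chain, the stearoyl-CoA desaturases Scd1 and Scd2 place a double bond in it, and Fads1 and Fads2 desaturate polyunsaturated chains. Many of these genes are known targets of the SREBP transcription factors, which respond to cellular sterols. The newly made lipids are used by mESCs for membranes during rapid growth.

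The cells were a single mESC line with GFP under the Oct4 promoter, kept without feeder cells on gelatin with leukaemia inhibitory factor and both 2i inhibitors. Control cells received the NaCl vehicle and treated cells received 10 µM morphine, an opioid receptor agonist, and both were collected after 24 h. Poly(A) RNA was sequenced in 2 control and 2 morphine libraries, and H3K27me3, the trimethylation of histone H3 lysine 27 that marks Polycomb-silenced chromatin, was profiled by ChIP-Seq in another 2 and 2. The methods call the RNA samples duplicates and the study calls the ChIP samples biological replicates, without stating separate cultures for the RNA, so an RNA p-value measures only the spread between these libraries, which may be technical.

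The RNA libraries held 25081266 to 29531096 counts. Of the 20350 tested loci, 309 (1.52%) passed a false discovery rate (FDR) of 0.05 in edgeR's quasi-likelihood test, 125 (0.614%) higher and 184 (0.904%) lower after morphine. Without morphine replicate 1 that number was 13, and without control replicate 2 it was 1619. The labelled cell type was checked on its markers: all 15 pluripotency genes examined were tested, and their summed level was 6060 to 6184 CPM (reads adjusted for sequencing depth) in the controls and 6156 to 6321 CPM after morphine, with Klf2 the one that passed edgeR's quasi-likelihood test (log2 fold change 0.33, adjusted p = 0.0151). Klf2 was not called with length and GC trends removed (0.13), and DESeq2 called 4 of the 15. The corresponding sums were 18.1 to 18.5 and 18.7 to 20.5 CPM for fibroblast markers (Dcn at 0 in every library), 5.30 to 6.41 and 5.33 to 6.72 CPM for mesoderm, 32.9 to 33.2 and 35.5 to 36.0 CPM for trophoblast, 211 to 217 and 207 CPM for primitive endoderm, 148 to 151 and 155 to 162 CPM for neural and 92.5 to 93.2 and 93.9 to 95.8 CPM for primed epiblast markers. None of the 27 tested genes of those 6 lists passed edgeR's quasi-likelihood test or DESeq2 with all libraries, and 3 had an unadjusted edgeR p below 0.05. The trophoblast marker Krt8 (log2 fold change 0.32) was called higher without control replicate 2. The part of the small shifts in these sums in the results below was not tested.

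The DNA just upstream of these genes differs in the motifs it carries, and the promoters with the most matches are shown here. RefSeq promoter windows (GRCm38.p6, the assembly of mm10), which run from 250 bases before to 50 bases after the start of a transcript, were given for 7 of the 10 genes. Those of Scd1, Scd2 and Fads1 were not analysed here. The 250 bases before the start of Acly (chr11:100528001-100528250, minus strand), Acss2 (chr2:155517793-155518042, plus strand) and Fasn (chr11:120824548-120824797, minus strand) read 5′ to 3′ as follows, with capitals on each NF-Y box (CCAAT) and Sp1 box (GGGCGG) on either strand.
Acly: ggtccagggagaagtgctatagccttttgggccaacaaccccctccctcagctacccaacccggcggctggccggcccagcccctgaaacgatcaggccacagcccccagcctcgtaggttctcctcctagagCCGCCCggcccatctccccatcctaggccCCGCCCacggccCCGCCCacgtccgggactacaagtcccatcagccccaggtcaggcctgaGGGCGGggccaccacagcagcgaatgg
Acss2: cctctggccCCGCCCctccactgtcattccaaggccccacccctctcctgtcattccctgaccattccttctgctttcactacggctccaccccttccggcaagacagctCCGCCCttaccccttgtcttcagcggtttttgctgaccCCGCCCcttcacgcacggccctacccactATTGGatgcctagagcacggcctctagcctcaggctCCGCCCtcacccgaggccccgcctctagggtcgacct
Fasn: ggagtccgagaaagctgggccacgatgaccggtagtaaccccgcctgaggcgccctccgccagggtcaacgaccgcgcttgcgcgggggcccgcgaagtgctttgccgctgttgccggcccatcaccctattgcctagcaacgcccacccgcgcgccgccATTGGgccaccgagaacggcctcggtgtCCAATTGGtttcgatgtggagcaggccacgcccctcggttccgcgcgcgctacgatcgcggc

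Fasn had NF-Y boxes 90, 62 and 59 bases before its start, the last 2 overlapping each other on opposite strands, and an E-box (CANNTG, read alike on both strands) 61 bases before the start lies within the combined span of those 2 boxes. Acss2 had 1 NF-Y box, 73 bases before its start, and 5 Sp1 boxes, of which 1 lies after the start. The 4 Sp1 boxes of Acly stood 117, 88, 76 and 27 bases before its start, and its only NF-Y box followed the start.

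Over the whole windows, an NF-Y box was found in 3 of the 7 enzymes (Acly, Acss2, Fasn) against 41.1% of the 27025 genes in the RefSeq table, and an Sp1 box in 3 (Acly, Acss2, Fads2) against 38.2%. An E-box was found in 2 of 7 (Acaca, Fasn), against 75.0% of all genes. A sterol regulatory element spelled TCACNCCAC was found in 0 of 7 and in 1.44% of all genes. These are matches of letters in short windows on both strands, not measured binding sites, and the Acaca window precedes an internal start of the gene.

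The level of the 10 enzymes was compared per kb of locus length, on CPM scaled by TMM (trimmed mean of M values) library sizes. In the controls Acly was highest, at 235 ± 2.68 CPM per kb (mean ± SD, n = 2), followed by Scd2 at 119 ± 1.62 and Fasn at 64.0 ± 0.244. Scd1 (41.2 ± 0.778) and Elovl6 (40.2 ± 3.30) had overlapping control libraries and could not be ordered. Fads1 (16.3 ± 0.363) overlapped both Aacs (16.7 ± 0.549) and Fads2 (15.3 ± 1.15), while both Aacs libraries lay above both Fads2 libraries. Acaca, which makes the malonyl-CoA that Fasn consumes, stood at 3.99 ± 0.0376 and Acss2 was lowest at 1.72 ± 0.0943 CPM per kb. The length of a locus is that of all its assembled exons together (14.9 kb for Acaca and 9.53 kb for Acss2), so extra assembled exons lower a level per kb.

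**Figure D1:**
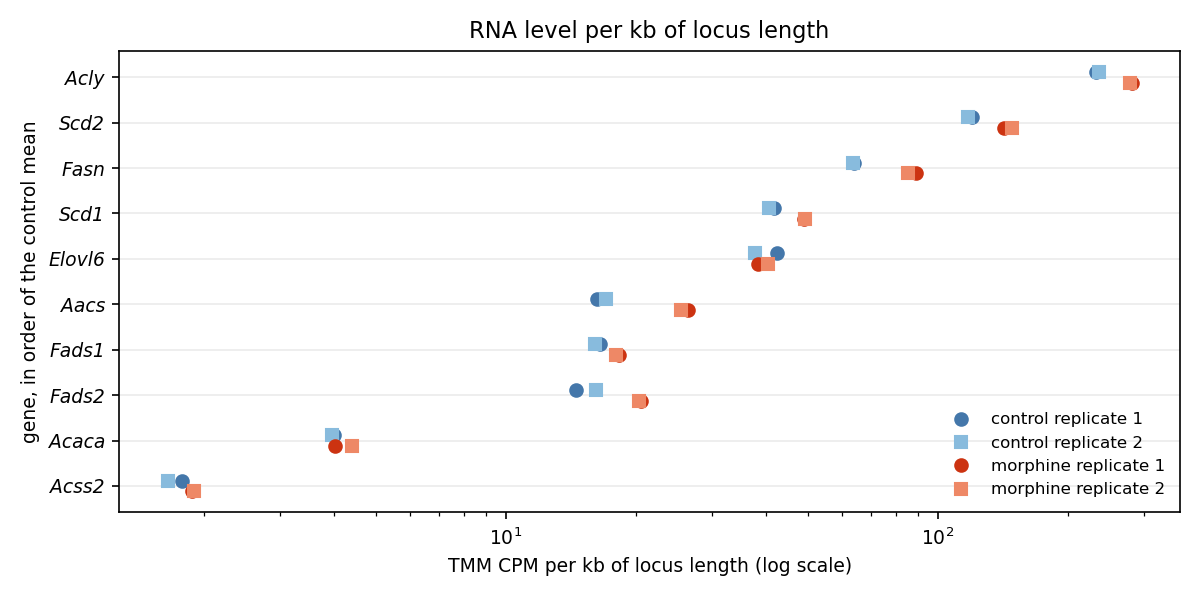
RNA level of the 10 enzymes in CPM per kb of locus length (x axis, log scale), ordered by the control mean, with 1 point per library (blue control, red morphine; circles replicate 1, squares replicate 2). Levels span from Acss2 below 2 CPM per kb to Acly above 230 CPM per kb, and the controls of Scd1 overlap those of Elovl6, and those of Fads1 overlap both Aacs and Fads2.

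After morphine the order of the means differed from the controls only in that Fads2 stood above Fads1. Scd1 (49.2 ± 0.234 CPM per kb) lay above Elovl6 (39.4 ± 1.42), and Aacs (26.0 ± 0.703) lay above Fads2 (20.4 ± 0.0906), which lay above Fads1 (18.1 ± 0.265). No neighbours in the order of the 10 overlapped in the morphine libraries.

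Across the set, 9 of the 10 enzymes had both morphine libraries above both control libraries, where 26.0% of all tested loci did so, and 6 of 10 were called higher at FDR 0.05, where 0.614% of all tested loci were. Since the genes were picked on this contrast, those counts describe the choice and nothing is read from them. Without morphine replicate 1, the called enzymes numbered 3 (Aacs, Fasn and Scd2). The median log2 fold change of the 10 was 0.25, against 0.0013 over all tested loci.

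Together the 10 enzymes took 3081 and 3053 CPM in control replicates 1 and 2 and 3746 and 3745 CPM in morphine replicates 1 and 2, which is 0.304% of all counts in both controls and 0.378% and 0.376% after morphine. The summed level was 1.22-fold higher after morphine. Acly, Fasn and Scd2 made up 76.7% to 78.9% of the sum in each library, so the sum mainly follows those 3. In bulk RNA, a change in the number of cells that express a gene and a change in the RNA per cell cannot be told apart.

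**Figure D2:**
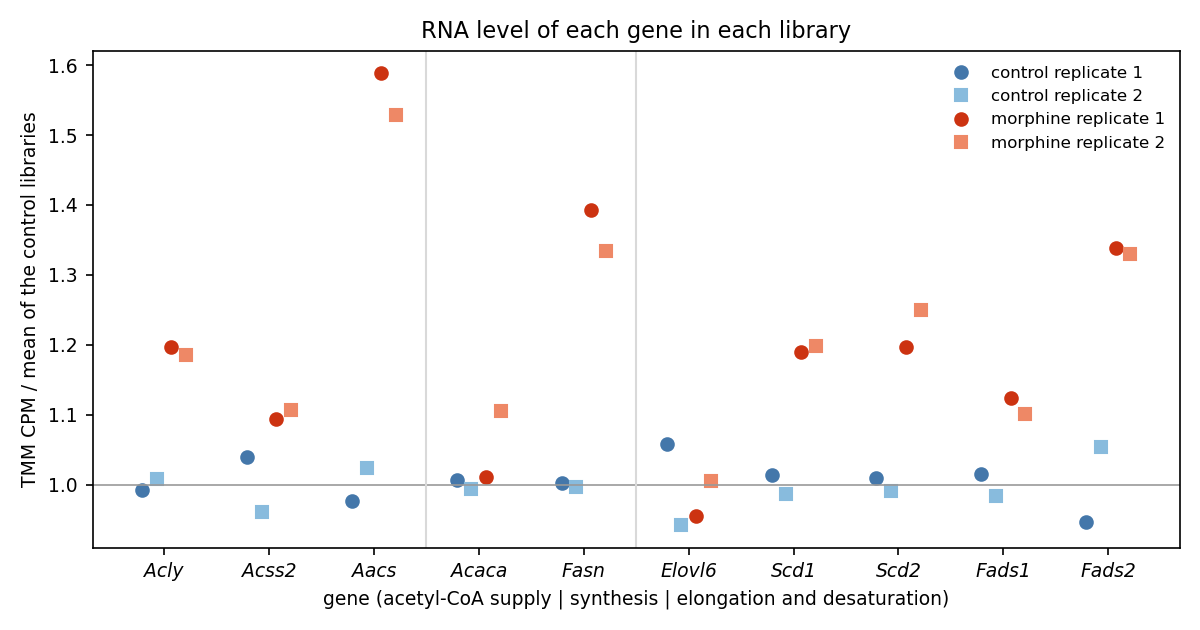
TMM CPM of each enzyme in each library divided by its control mean (y axis), with the genes in the order of their roles (x axis); blue is control and red is morphine, circles are replicate 1 and squares replicate 2. Aacs, Fasn and Fads2 lie more than 1.3-fold above the control mean in both morphine libraries, while the Elovl6 libraries of both groups are mixed.

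Among the enzymes that supply acetyl units, Acly (ENSMUSG00000020917.17, chr11:100476352-100528000, minus strand, mm10) measured 1073 and 1091 CPM in control replicates 1 and 2 and 1295 and 1282 CPM in morphine replicates 1 and 2. Its log2 fold change was 0.25 (SE 0.04), a rise of 19.1%, and the gap between the groups of 191 CPM was far wider than the spread within either. Acly shared none of its 50-base words with another annotated gene, and its locus overlaps that of the microRNA Mir7116.

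Aacs (ENSMUSG00000029482.4, chr5:125475873-125517403, plus strand), which turns acetoacetate into acetoacetyl-CoA for lipid synthesis, had the largest log2 fold change of the 10. It measured 51.6 and 54.1 CPM in the controls and 83.9 and 80.8 CPM after morphine, a log2 fold change of 0.64 (SE 0.06) or 55.8%. The lower morphine library was 26.7 CPM above the higher control.

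Acss2 (ENSMUSG00000027605.18, chr2:155518043-155585724, plus strand) is the least abundant enzyme of the set, with 453 to 510 counts per library. It measured 17.0 and 15.7 CPM in the controls and 17.9 and 18.1 CPM after morphine, with a log2 fold change of 0.14 (SE 0.08). The groups did not overlap, but the gap of 0.910 CPM was close to the control SD of 0.899 CPM, and without control replicate 2 the log2 fold change was 0.09. The Acss2 locus overlaps those of Gss and of Acss2os, and 6.13% of its 50-base words are shared with other genes, so some of its reads may belong to them.

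The 2 enzymes of the synthesis step itself differed from each other in their values. Fasn (ENSMUSG00000025153.9, chr11:120805958-120824547, minus strand) measured 637 and 634 CPM in the controls and 886 and 848 CPM after morphine. Its log2 fold change was 0.45 (SE 0.04), or 36.4%, with no overlap between the groups and no 50-base word shared with another gene.

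Acaca (ENSMUSG00000020532.18, chr11:84129672-84401651, plus strand) measured 59.7 and 58.9 CPM in the controls and 59.9 and 65.5 CPM after morphine. Its log2 fold change was 0.08 (SE 0.06), and morphine replicate 1 lay only 0.236 CPM above the higher control. The log2 fold change was 0.02 without morphine replicate 2 and 0.15 without morphine replicate 1. Of its 50-base words, 30.4% occur in other annotated genes, 5016 of them in the pseudogene Gm5182, and the locus also overlaps Gm11437. How the counting treated reads with several alignments is not given in the sources used here, so the Acaca values are uncertain. The level of Fasn per kb was 16.0 and 16.1 times that of Acaca in the controls and 22.1 and 19.4 times that of Acaca after morphine.

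Of the desaturases, Scd2 (ENSMUSG00000025203.6, chr19:44293676-44306864, plus strand) was the more abundant of the stearoyl-CoA desaturase pair. It measured 654 and 642 CPM in the controls and 775 and 809.9 CPM after morphine, a log2 fold change of 0.29 (SE 0.04). Scd1 (ENSMUSG00000037071.3, chr19:44394450-44407709, minus strand) measured 202 and 197 CPM in the controls and 237 and 239 CPM after morphine, with a log2 fold change of 0.26 (SE 0.05). In neither gene did the groups overlap. The ratio of Scd2 to Scd1 per kb was 2.87 and 2.90 in the controls and 2.90 and 3.01 after morphine, so the pair kept nearly the same proportion.

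The 2 genes and their neighbours Scd3 and Scd4 are close copies, and 4.56% of the 50-base words of Scd1 and 3.97% of those of Scd2 occur in another gene. Scd4 itself was listed with only 1 and 3 counts in the controls and 2 and 2 counts after morphine. The locus BC114417 overlaps Scd1. The libraries were stranded, but whether the counting used strand is not stated.

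Fads2 (ENSMUSG00000024665.8, chr19:10064164-10101503, minus strand), the delta-6 desaturase that starts polyunsaturated fatty acid synthesis, measured 53.8 and 59.9 CPM in the controls and 76.1 and 75.6 CPM after morphine. Its log2 fold change was 0.42 (SE 0.06), and the gap of 15.7 CPM exceeded the control SD of 4.28 CPM. Fads1 (ENSMUSG00000010663.5, chr19:10182888-10196874, plus strand), the delta-5 desaturase beside it on the chromosome, measured 74.1 and 71.8 CPM in the controls and 82.0 and 80.3 CPM after morphine, a log2 fold change of 0.15 (SE 0.05). Both genes were higher in every morphine library, with a larger log2 fold change for Fads2, and the Fads1 locus overlaps that of the microRNA Mir6993. The ratio of Fads2 to Fads1 per kb was 0.876 and 1.01 in the controls and 1.12 and 1.14 after morphine.

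Elovl6 (ENSMUSG00000041220.10, chr3:129532386-129638495, plus strand), which lengthens palmitate to stearate, was the one enzyme whose groups overlapped. It measured 259 and 230.2 CPM in the controls and 234 and 246 CPM after morphine, with a log2 fold change of -0.03 (SE 0.06) that became 0.09 (SE 0.05) once the trends with locus length and GC content were removed. Its control SD of 20.1 CPM exceeded the difference between the group means, and its log2 fold change ran from -0.10 without control replicate 2 to 0.05 without control replicate 1.

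GC content moved with the fold change in these libraries as a whole. With the tested loci split into 5 equal bins by the GC content of their exons, the median log2 fold change was -0.15 in the bin below 43.9% GC, then -0.07, -0.0041 and 0.07, and 0.15 in the bin above 55.6% GC. The 10 enzymes ranged from 44.2% (Elovl6) to 58.1% (Fasn) with a median of 50.6%, close to the median of 49.7% over all tested loci. Within the set, the 2 GC-richest genes (Aacs and Fasn) had the largest fold changes and the GC-poorest (Elovl6) the smallest.

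With the length and GC trends removed by splines, the log2 fold change was 0.51 for Aacs, 0.38 for Fads2, 0.33 for Fasn, 0.31 for Scd1, 0.31 for Scd2, 0.26 for Acss2, 0.22 for Acly, 0.19 for Acaca, 0.11 for Fads1 and 0.09 for Elovl6. Thus Aacs and Fasn came down and Acss2, Acaca and Elovl6 went up, and all 10 values were above 0 with a median of 0.28. Over all loci, 79 of 20335 were called with the trends removed, 56 of them higher after morphine.

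**Figure D3:**
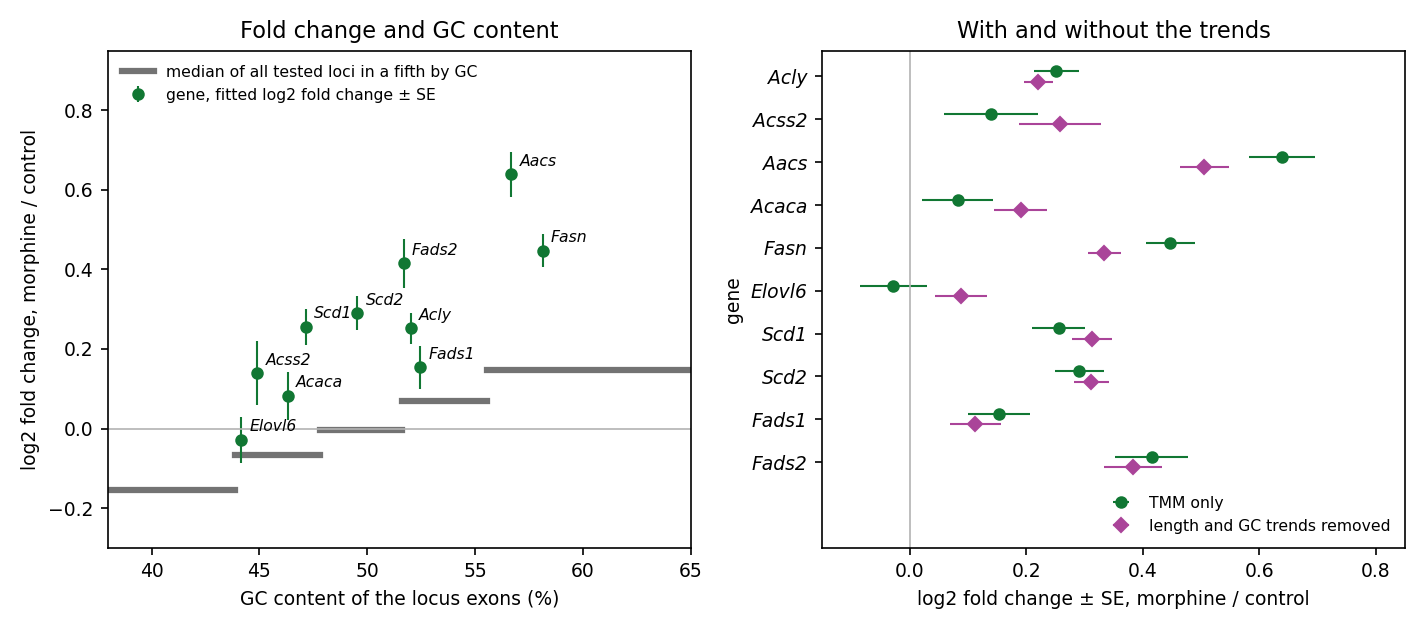
Left, log2 fold change of each enzyme (points, ± SE) against the GC content of its exons in percent, with grey bars at the median of all tested loci in each of 5 GC bins; right, the same fold changes (circles) beside those after removal of length and GC trends (diamonds), both ± SE. The medians climb from -0.15 to 0.15 over the bins, and after removal all 10 enzymes lie above 0, Elovl6 included.

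The genes whose profile over the 4 RNA libraries was most like the mean profile of the enzymes were sought among 9381 named loci of at least 10 CPM, by the Euclidean distance of log2 CPM centred on each gene. Those nearest included Cmklr1, the chemerin receptor, at a distance of 0.0207, with 39.9 and 39.4 CPM in the controls and 47.2 and 47.0 CPM after morphine. The others named here were Calca (0.0208), the calcitonin gene, Rdh11 (0.0274), a retinol dehydrogenase, and Stx6 (0.0289), a syntaxin of endosomes and the Golgi. Of the enzymes themselves, Scd1 was nearest to their mean profile at 0.0177 and Aacs farthest at 0.38. With 4 libraries in 2 groups, such a distance mostly measures the size of 1 difference.

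Beyond the 10 enzymes, 7 lists of lipid genes were read from the same fit, with 119 of their 127 genes tested. These are genes the choice did not rest on, although the lists were drawn up with results of these data known. In all, 21 of the 119 were called higher and 1 lower at FDR 0.05, against 0.614% and 0.904% of all tested loci. Outside the cholesterol synthesis list, 6 of 99 were called higher. Without morphine replicate 1 only Pmvk, Mvd and Lss were called higher and none lower. Without control replicate 1 none was called lower, and without control replicate 2 there were 4.

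Among 14 tested elongation and desaturation enzymes outside the set, 1 was called higher and none lower by edgeR's quasi-likelihood test, with a median log2 fold change of -0.02 (0.07 with the trends removed). The called gene was Tecr, the reductase of the last step of chain elongation, named here after its values were seen. It measured 207 and 215 CPM in the controls and 262 and 247 CPM after morphine (log2 fold change 0.27, SE 0.05, edgeR adjusted p = 0.0282, higher in 2 of 2 libraries), and was not called with the trends removed. Elovl2, which elongates long polyunsaturated chains, is named because its call varied: its log2 fold change was -0.42 (edgeR adjusted p = 0.0872), and it was called lower by the exact and likelihood ratio tests of edgeR and without control replicate 2. Elovl5, which elongates polyunsaturated chains, had overlapping groups and a log2 fold change of -0.08 (SE 0.05, edgeR adjusted p = 0.443).

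Of 15 tested genes in the list of other fatty acid synthesis, citrate export and NADPH supply, 1 was called higher and none lower. Their median log2 fold change was 0.05, and -0.0025 with the trends removed. Slc25a1, the mitochondrial citrate carrier that brings Acly its substrate, measured 69.6 and 79.0 CPM in the controls and 100.7 and 95.7 CPM after morphine. Its log2 fold change was 0.40 (SE 0.07, edgeR adjusted p = 0.0198), and 0.22 with the trends removed, where it was no longer called. Idh1, an NADPH-producing isocitrate dehydrogenase named after its values were seen, was called only with the trends removed (log2 fold change 0.18, against 0.10 without that correction). Acacb, the mitochondrial-surface form of acetyl-CoA carboxylase, had a log2 fold change of -0.02 (SE 0.07, edgeR adjusted p = 0.928), and the NADPH-producing malic enzyme Me1 had 0.04 (SE 0.06, edgeR adjusted p = 0.74).

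Of 17 tested lipogenic regulators, 3 were called higher and 1 lower, with a median of 0.08 (-0.0014 with the trends removed). Srebf1, which encodes the SREBP-1 factors, measured 157 and 166 CPM in the controls and 200.2 and 191 CPM after morphine (log2 fold change 0.27, SE 0.05, edgeR adjusted p = 0.0342). Insig1, which holds SREBPs in the endoplasmic reticulum when sterols are plentiful, measured 81.4 and 75.3 CPM in the controls and 93.8 and 96.7 CPM after morphine (0.28, SE 0.06, edgeR adjusted p = 0.0413). Prkaa2 encodes a catalytic subunit of AMPK, the kinase that inhibits acetyl-CoA carboxylase. It measured 16.6 and 14.6 CPM in the controls and 11.5 and 11.7 CPM after morphine (-0.43, SE 0.09, edgeR adjusted p = 0.0481). DESeq2 did not call Prkaa2. Nr1h2, the sterol-sensing receptor LXR-beta, named after its values were seen, was the third gene called higher (0.26, SE 0.06, edgeR adjusted p = 0.0481). Insig1 was still called with the trends removed, while Srebf1, Nr1h2 and Prkaa2 were not. None of the 4 was called in every fit that left out 1 library: without morphine replicate 1 all were lost, without control replicate 1 Srebf1, Nr1h2 and Prkaa2, and without morphine replicate 2 Insig1, Nr1h2 and Prkaa2.

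Other regulators did not pass edgeR's quasi-likelihood test with all libraries. Srebf2, the main SREBP of sterol synthesis, had a log2 fold change of 0.19 (SE 0.04, edgeR adjusted p = 0.0554). Its call varied: it was called by DESeq2, by the exact and likelihood ratio tests of edgeR, and without control replicate 2 or morphine replicate 2. Mbtps2, a protease that cleaves SREBPs, named after its values were seen, had -0.22 (SE 0.08, edgeR adjusted p = 0.159) and was called lower without morphine replicate 2. Scap, the escort of both SREBPs, had 0.06 (SE 0.05, edgeR adjusted p = 0.558). Mlxipl, the carbohydrate response factor ChREBP, had 0.47 (SE 0.16, edgeR adjusted p = 0.141) at 2.69 and 2.82 CPM in the controls and 3.87 and 3.77 CPM after morphine, for 1 of 4 loci of that name. Nr1h3, LXR-alpha, had 0.38 (SE 0.22, edgeR adjusted p = 0.365) at 2.24 to 3.60 CPM.

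Lists for the use and storage of fatty acids were read in the same way. Of 20 genes of fatty acid activation and glycerolipid synthesis, 0 were called by edgeR or DESeq2, with 2 at an unadjusted p below 0.05 and a median log2 fold change of 0.03 (-0.06 with the trends removed). Without control replicate 2 edgeR called 2 of them, Lpin3 higher and Agpat5 lower, named here after their values were seen. Of 21 genes of beta-oxidation, 0 were called by edgeR or DESeq2, with 4 at an unadjusted p below 0.05. Their median was 0.04, and 0.0097 with the trends removed. The 12 tested genes of fatty acid uptake and binding had a median of 0.08, and -0.00099 with the trends removed.

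Cholesterol synthesis, the other pathway under SREBP control, had 15 of 20 genes called higher and none lower, with a median log2 fold change of 0.29, and 13 called with the trends removed. The largest were Mvd (0.61, edgeR adjusted p = 0.000624), Pmvk (0.58, edgeR adjusted p = 0.00103), Lss (0.50, edgeR adjusted p = 0.000909), Fdps (0.47, edgeR adjusted p = 0.00405), Dhcr7 (0.43, edgeR adjusted p = 0.00485) and Mvk (0.41, edgeR adjusted p = 0.0119), and those called also included Tm7sf2 and Fdft1 at 0.31 and Msmo1 at 0.30. The 10 fatty acid enzymes ranged from -0.03 to 0.64, and the cholesterol genes from -0.06 to 0.61.

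**Figure D4:**
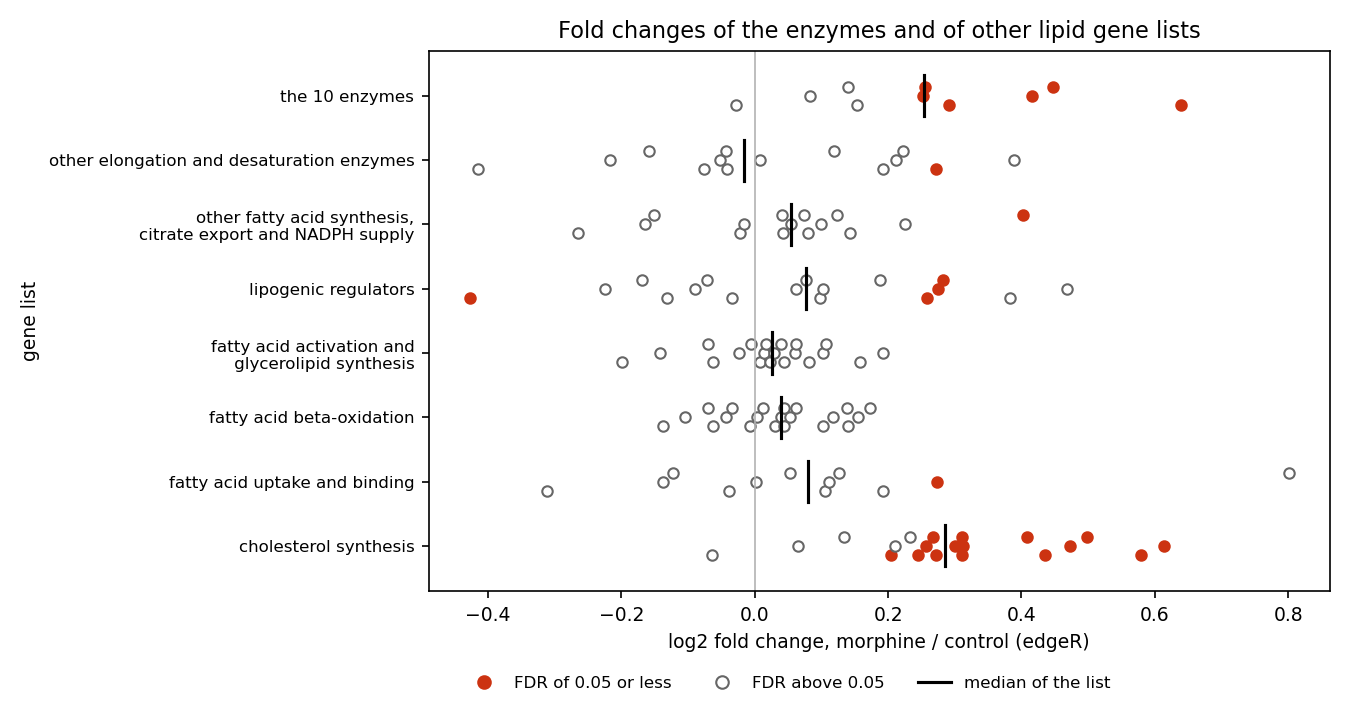
Log2 fold change (x axis, morphine over control) of each tested gene in the 10 enzymes and 7 other lipid lists (y axis), with called genes in red, others open and the list median as a black bar; the vertical scatter within a row has no meaning. The enzymes (median 0.25) and cholesterol synthesis (0.29) lie to the right of 0 (apart from Elovl6, which moves above 0 with trends removed, and 1 cholesterol gene), and the other medians lie between -0.02 and 0.08.

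H3K27me3 peaks were a readout that the choice of the genes did not use. The peak lists held 10305 and 13778 peaks in the controls and 8681 and 12282 after morphine, called separately in each library, and they give presence and position but not read counts. A gene was counted if a peak lay within 1 kb of one of its transcription start sites (TSSs). Among the 10 enzymes, 0 and 1 had such a peak in control replicates 1 and 2, and 2 and 3 had one in morphine replicates 1 and 2. The corresponding share of 14211 tested genes was 19.9% and 20.5% in the controls and 20.7% and 21.4% after morphine. The mean difference of 2 genes had p = 0.333 in a two-sided exact permutation test, the smallest p that 2 libraries against 2 allow.

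The peaks were those of 4 genes, and 3 of those genes had one in a single library. At Acss2 a peak ended 61 bp upstream of the first TSS in control replicate 2, 160 bp upstream in morphine replicate 1 and 136 bp upstream in morphine replicate 2. Its nearest peak in control replicate 1 ended 2650 bp upstream. The Acss2 promoter thus lay near a peak in all 4 libraries, at distances that differed.

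At Acly a peak of 1396 bp (chr11:100526589-100527984) was called in morphine replicate 1 alone, with a score of 69.1, on the MACS scale of 10 times the negative log10 of the p-value. At Scd1 a peak of 1895 bp (chr19:44405924-44407818, score 85.2) covered the TSS in morphine replicate 2 alone. At Acaca a peak of 5828 bp (chr11:84173714-84179541, score 131) began 592 bp downstream of the first TSS of the GENCODE basic set, which lies inside the gene, in morphine replicate 2 alone. Acaca also had a pair of peaks in every library, whose near ends lay 17760 to 18566 bp and 25521 to 25979 bp upstream of that TSS, within the locus. Thus the peaks at Acly, Scd1 and Acaca that were near a TSS were not shared between the morphine replicates, and the RNA of these genes was not lower after morphine.

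No peak lay within 20 kb of a TSS of Aacs, Fasn, Elovl6 or Fads1 in any of the 4 libraries. Scd2 and Fads2 each had 1 peak within 20 kb in a single library, 15651 bp upstream of Scd2 in morphine replicate 2 and 15926 bp upstream of Fads2 in control replicate 1. With a promoter of 3 kb the counts were 1 and 1 in the controls, where 23.1% and 23.9% of tested genes had a peak, and 2 and 3 after morphine, where 22.9% and 24.4% did. The mean difference was 1 rather than 2 genes with peaks of a score of at least 100 (0 and 0 against 1 and 1), with the greater part of the promoter covered (0 and 0 against 1 and 1) and over the gene body with 3 kb on either side (2 and 2 against 3 and 3).

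**Figure D5:**
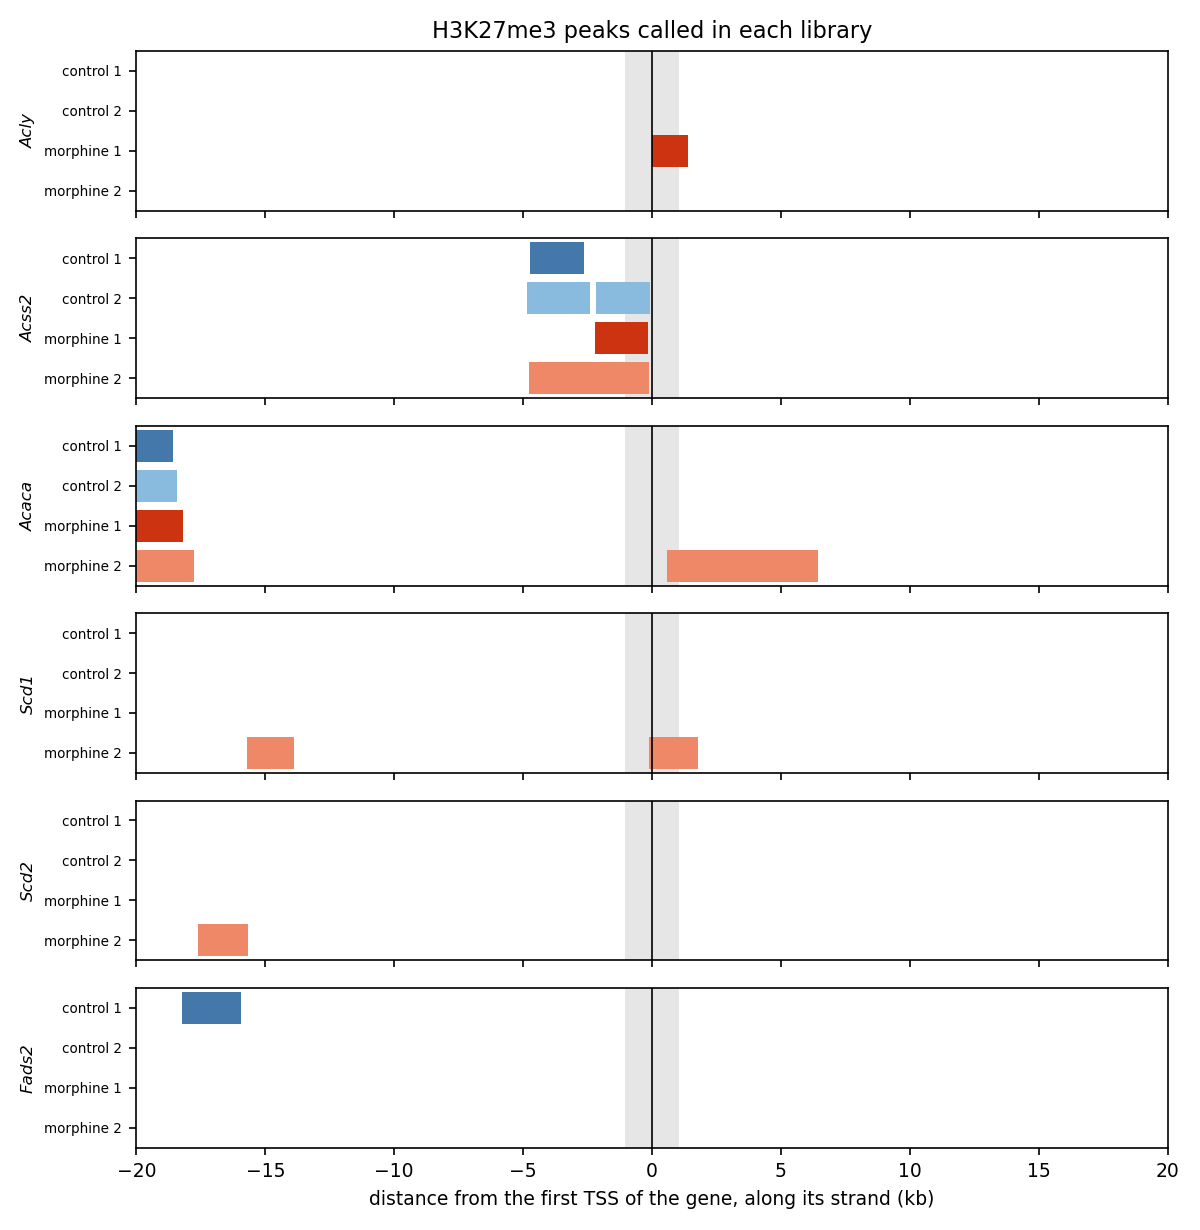
H3K27me3 peaks (bars, coloured by library) within 20 kb of the first TSS of the 6 enzymes that had any, plotted by distance along the gene's strand in kb, with 1 row per library and the 1 kb on either side of the TSS shaded. Acss2 has a peak upstream in all 4 libraries, and the promoter peaks of Acly, Acaca and Scd1 each appear in 1 morphine library.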

How the data were processed

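The authors trimmed reads with Trim Galore (version 0.6.2), aligned RNA reads to mm10 with HISAT2 (version 2.1.0), assembled transcripts with StringTie (version 1.3.6) and deposited raw counts per locus from featureCounts (version 1.6.4). They aligned ChIP reads with Bowtie2 (version 2.3.5.1), and the deposited peak score is 10 times the negative log10 of the MACS p-value (threshold 1e-05, each library on its own). The locus length is the exonic length per the file headers. The control of the peak caller is not given in the sources used here.

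Here counts were filtered by filterByExpr, TMM-scaled and tested over all loci with edgeR (version 4.0.16, R 4.3.3) by the quasi-likelihood test with Benjamini-Hochberg adjustment. The 10 enzymes, the lists and the tests were chosen with earlier results of these data known. Named genes were the enzymes, at most 12 called list genes by size of change, a fixed set of regulators and enzymes and the 5 most alike, some of which are not reported here. TSSs were those of GENCODE vM21 basic. Scripts were tested on simulated data. DESeq2 (version 1.42.0), scalings, filters, splines (5 degrees of freedom) and left-out libraries were alternatives. The calls of the enzymes under alternatives and the left-out peak libraries were added after seeing the data. Replicate numbers were not taken as pairs.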

Additional observations from a re-analysis of the deposited data

How the results depend on the processing

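The 309 loci called became 652 with DESeq2, 790 with edgeR's exact test, 840 with its likelihood ratio test, 79 with length and GC trends removed, 1657 with no count filter, 489 after thinning to the smallest library, 515 with total counts and 24 at an FDR of 0.01, and 13 to 1619 when 1 library was left out. With a replicate block they numbered 1128, and 524 with the block and the trends removed. Same-numbered libraries deviated together with r = 0.0107 over 20341 loci and share only a number, so the block is given only here. List genes called higher (21) numbered 6 at an FDR of 0.01 and 3 to 23 when 1 library was left out. The 1 list gene called lower became 0 with DESeq2, with the trends removed, with the block and the trends removed and at an FDR of 0.01, 3 with the exact test, the likelihood ratio test and the replicate block, 5 with no filter, and 0 to 4 when 1 library was left out. The cause of these shifts was not tested.

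The median log2 fold change of the 10 enzymes (0.25) was 0.28 with the trends removed, 0.29 with the block and the trends removed, 0.25 with no filter, 0.27 with total counts and 0.253 to 0.257 when 1 library was left out. Of 120 single values, 25 moved by more than the spread between replicates, and 9 enzymes stayed above 0 in every alternative run, the exception being Elovl6. The called enzymes (6) were 7 with the block and the trends removed and 2 at an FDR of 0.01. Each enzyme had at least 453 counts per library, and with 2 libraries a group every SE rests on a spread shared across loci.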
